A study of Mus musculus and Homo sapiens with 33 samples.

Results

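The 10 genes described here write, maintain or erase DNA methylation: Uhrf1, Uhrf2, Dnmt1, Dnmt3a, Dnmt3b, Hells, Cdca7, Tet1, Tet2 and Tet3. They were taken by symbol from the 38924 gene IDs of an RNA-seq count matrix of KPL cells, a mouse lung adenocarcinoma line, and each matched 1 ID. The comparison is between 3 control libraries of KPL cells, named for ethanol in the sample descriptions, and 3 libraries of KPL cells given 4-hydroxytamoxifen (4-OHT) for 72 hours at a dose the labels write as 10 nm. Per the labels, 4-OHT served to delete Lin9, the gene of a core subunit of the MuvB complex, which controls cell cycle genes. The labels name neither the allele nor the recombinase, and no KPL library with 4-OHT and an undeletable Lin9 was analysed here, so the effects of 4-OHT itself and of Lin9 loss cannot be told apart. The series has 33 samples in all, and its 27 ChIP-seq samples were not analysed here.

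In mammals DNA methylation sits mostly on cytosines of CpG pairs, and each round of replication leaves it on the old strand only. UHRF1 binds such hemimethylated sites and brings in DNMT1, which copies the mark to the new strand. HELLS is a chromatin remodeller that, with its partner CDCA7, opens nucleosomal DNA to this machinery. DNMT3A and DNMT3B place methyl groups on unmethylated DNA, and the TET enzymes oxidise methylcytosine, a step towards its removal. UHRF2 is a relative of UHRF1 with the same kinds of domain.

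Among the 10 genes, Uhrf1, Cdca7 and Hells were lower in the 4-OHT libraries, at 74.4%, 80.3% and 87.9% of the control level. Dnmt1, Uhrf2, Dnmt3a, Dnmt3b, Tet2 and Tet3 did not pass the test, and Tet1 had too few reads to be tested. Of the 9 genes tested, 3 were thus called lower and 0 higher (quasi-likelihood test of edgeR, p adjusted over all genes by Benjamini-Hochberg, under 0.05), against 5.17% called lower and 4.61% called higher of all 13355 genes tested. At an unadjusted p under 0.05 the members counted 3 lower and 0 higher as well, and 0 were higher in DESeq2 or limma-voom. Over all genes, limma-voom called 684 lower and 605 higher, and DESeq2 called 208 higher. The share of all genes at an unadjusted p under 0.05 is not given here. Counts at that level, here and for the lists below, therefore have no background beside them. The median log2 fold change of the 9 was -0.08, against 0.00052 over all genes tested.

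Sequences before annotated transcription starts are shown because the MuvB complex and the E2F factors bind promoters of cell cycle genes, and because Uhrf1, Cdca7 and Hells moved together. All 10 genes had at least 1 annotated start in the RefSeq promoter table (GRCm38.p6), with 15 starts in all, and the 250 bases before each start were searched on both strands. The E2F words searched were TTTCCCGC, TTTCGCGC, TTTGCCGC and TTTGGCGC. One of them was found for 4 members, namely Uhrf1, Hells, Cdca7 and Dnmt1, each time once. Such a word stands in a window of 2.16% of all genes in the table. The share is 4.03% of the 9003 tested genes that have a window. Among the genes called lower, 467 have a window, and 28 of these hold a word. These shares are per gene and are not matched for the number of starts. The 10 members have 15 windows, and the 27025 genes in the table have 32851. The 3 members that fell all held a word, and so did Dnmt1, which was not called. The stretches are printed in the direction of transcription with the word in capitals.

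Uhrf1, chr17:56304117-56304146, plus strand: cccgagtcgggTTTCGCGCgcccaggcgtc
Hells, chr19:38930917-38930946, plus strand: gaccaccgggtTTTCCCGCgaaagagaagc
Cdca7, chr2:72476137-72476166, plus strand: tgcgtcccggcGCGGGAAAgccggtggccc
Dnmt1, chr9:20952824-20952853, minus strand: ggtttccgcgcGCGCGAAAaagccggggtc

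The Hells and Cdca7 words begin 62 and 71 bases before a start. Both are the same word, TTTCCCGC, read on opposite strands. In Uhrf1 the word begins 185 bases before the second of 2 annotated starts, and in Dnmt1 219 bases before the third of 3, so that both also lie downstream of another start of the same gene. The Hells stretch lies inside the annotated span of its gene as well, and of the 4 stretches only that of Cdca7 lies before the first annotated base of its gene. The longer stretch of Cdca7 is shown because its single window reaches back over 218 bases before the first annotated base of the gene.

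Cdca7, chr2:72475969-72476186, plus strand: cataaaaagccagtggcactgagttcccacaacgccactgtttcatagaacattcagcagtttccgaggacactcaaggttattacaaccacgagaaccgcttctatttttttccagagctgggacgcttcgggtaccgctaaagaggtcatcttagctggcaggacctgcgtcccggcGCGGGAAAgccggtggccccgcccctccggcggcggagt

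The cell cycle homology region TTTGAA, a MuvB-binding word of mitotic promoters, was found in the same windows for 2 members, Dnmt1 and Dnmt3b, neither of them called. It begins 199 bases before the first Dnmt1 start and 128 bases before the Dnmt3b start. It stands in a window of 18.3% of all genes in the table. The share is 12.7% of the 9003 tested genes that have a window. Among the 467 genes called lower that have a window it is 21.0%. None of the windows of Uhrf1, Hells or Cdca7 holds these letters. A match is a description of letters and not evidence of binding.

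Library totals lay between 5859826 and 5913942 reads, so that depth differed little. Lin9 (ENSMUSG00000058729, chr1:180641150-180690687) was counted at 156, 124 and 159 reads in the controls and at 108, 107 and 101 in 4-OHT libraries, a log2 fold change of -0.49 (standard error 0.11, edgeR adjusted p = 0.0011). The 4-OHT libraries kept 71.1% of the control level, in a count that covers the whole gene and does not separate the deleted part. Keratin genes of epithelial cells were high, with a mean of 1840 CPM (counts scaled to the size of the library) for Krt8 in control. The alveolar surfactant genes Sftpc and Sftpa1 had 0 reads and were the only 2 of the 11 listed lung epithelial markers without any. Sftpb, another listed surfactant gene, had reads. Of 7 tested lung epithelial markers 2 were lower and 0 higher (edgeR; 3 and 1 at a raw p under 0.05), and the summed level of all 11 listed was 5489 to 5563 CPM in the controls and 5466 to 5619 CPM after 4-OHT. Epcam, a surface protein of epithelial cells, fell from 223.2 ± 2.66 to 171.2 ± 6.76 CPM and the adhesion protein gene Cdh1 from 580.6 ± 18.1 to 527.2 ± 1.67 CPM (SD, n = 3 each). The part of these changes in the results for the members was not tested. Markers of fibroblasts, leukocytes and endothelium each summed to at most 11.6 CPM in every library, with 0 reads for Lum and Cd3e. Of the 5 such genes that could be tested 0 were called (edgeR; 0 also at a raw p under 0.05, in DESeq2 and limma-voom), the tested gene of highest mean CPM per list being Col1a1, Itgam and Tek. The labels do not describe the libraries as separate cultures, so the spread behind each p-value may be technical only.

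Uhrf1, the factor that reads hemimethylated DNA, showed the largest fall among the tested members. The gene (ENSMUSG00000001228) spans chr17:56303337-56323486 in GRCm38.p6, as all positions here from RefSeq. It stood at 170.1, 167.8 and 163.3 CPM in the control libraries and at 123.1, 119.6 and 130.0 CPM in the 4-OHT libraries. Each 4-OHT library lay below each control library. The mean fell from 167.1 ± 3.45 to 124.2 ± 5.29 CPM (SD, n = 3 each), which is a log2 fold change of -0.43 (standard error 0.05, 95% interval -0.52 to -0.33, edgeR adjusted p = 4.6e-12). This is a fall of 25.6%, and 220 of the 691 genes called lower fell further. In bulk RNA, fewer cells that express the gene and less RNA per cell cannot be told apart.

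Uhrf2, its relative (ENSMUSG00000024817, chr19:30030430-30093726), did not pass. Its level was 132.0, 138.4 and 133.7 CPM in the controls and 134.5, 139.5 and 124.7 CPM after 4-OHT, and the groups overlapped (log2 fold change -0.02, 95% interval -0.12 to 0.08, edgeR adjusted p = 0.888). The sign was not stable, and lay above 0 without control replicate 2 or 4-OHT replicate 3. The ratio of the pair does not depend on how libraries are scaled. Within a library, the log2 ratio of Uhrf1 to Uhrf2 reads was 0.37, 0.28 and 0.29 in the controls and -0.13, -0.22 and 0.06 in 4-OHT libraries. No 4-OHT value reached the control values. The difference was -0.41 (exact two-sided permutation test, p = 0.1, the smallest p that 3 libraries against 3 can give, 0.3 adjusted over the 3 ratios tested).

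Dnmt1, the enzyme that copies methylation after replication (ENSMUSG00000004099, chr9:20907206-20959888), did not pass. Its span holds the microRNA gene Mir7081. It was at 247.8, 271.5 and 258.1 CPM in the controls and at 255.2, 261.3 and 239.1 CPM after 4-OHT. The groups overlapped, and the highest and the lowest value were a control and a 4-OHT library. The log2 fold change was -0.04 (standard error 0.04, edgeR adjusted p = 0.625), and its 95% interval of -0.12 to 0.04 corresponds to 92.0% to 102.6% of the control level. The interval of Dnmt1 therefore lies wholly above that of Uhrf1, whose bounds are 69.7% and 79.3%.

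**Figure D1:**
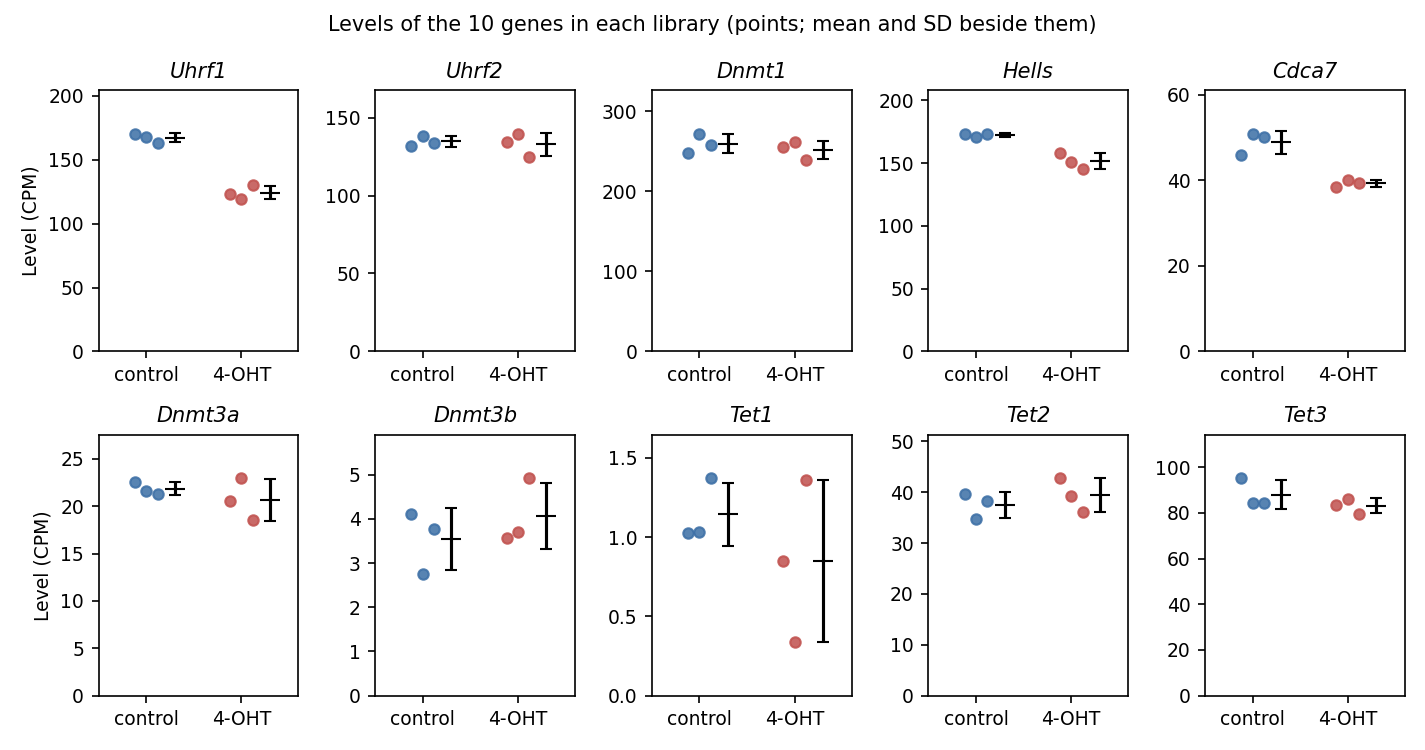
Levels of the 10 genes in CPM (vertical axis, from 0, own scale per gene) in the 3 control and 3 4-OHT libraries (points), with mean and SD beside them. For Uhrf1, Hells and Cdca7 each 4-OHT point lies below each control point, and for the other genes the groups overlap.

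Both partners of the remodelling complex were lower. Hells, the helicase subunit (ENSMUSG00000025001, chr19:38930262-38970470), was at 173.2, 170.9 and 173.1 CPM in the controls and at 157.9, 151.1 and 145.4 CPM after 4-OHT. The control libraries lay close together and all 4-OHT libraries were below them. The log2 fold change of Hells was -0.19 (standard error 0.04, 95% interval -0.28 to -0.10, edgeR adjusted p = 0.0017), a fall of 12.1%. It passed in DESeq2 too (adjusted p = 0.037).

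Cdca7, the zinc finger partner that recruits HELLS to chromatin (ENSMUSG00000055612, chr2:72476187-72486892), was at 45.9, 50.8 and 50.05 CPM in the controls and at 38.5, 40.0 and 39.4 CPM after 4-OHT. Again the groups were apart, with the 4-OHT libraries closer together than the controls. The mean went from 48.9 ± 2.67 to 39.3 ± 0.748 CPM (SD, n = 3 each), which is a log2 fold change of -0.32 (standard error 0.08, 95% interval -0.47 to -0.16, edgeR adjusted p = 0.0023). The Cdca7 call was lost in DESeq2 (adjusted p = 0.057). The log2 ratio of Hells to Cdca7 reads was 1.91, 1.75 and 1.79 in the controls and 2.03, 1.92 and 1.88 in 4-OHT libraries. These values overlapped, so a difference between the 2 falls was not shown (0.13, exact two-sided permutation test, p = 0.2, adjusted p = 0.3).

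Complete separation of the groups with 4-OHT below control was seen for these 3 of 9 tested members and for 12.2% of all genes tested. When the test asked for a change beyond 1.5-fold, 0 of the 3 passed (edgeR glmTreat, adjusted p = 1 each), so the falls are called as different from 0 but not as larger than 1.5-fold. In DESeq2 2 members were lower, where 2.88% of genes with an adjusted p were. The authors' deposited table lists Uhrf1, Cdca7 and Hells with log2 fold changes of -0.43, -0.32 and -0.19 and with FDR values of 4.4e-15, 0.0020 and 0.0031. Of the 17506 genes in the authors' deposited table, 3.89% are lower at an FDR under 0.05, and none of the other 7 members is among them at either sign, with FDR values from 0.560 for Tet3 to 0.962 for Uhrf2.

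The de novo enzymes did not pass. Dnmt3a (ENSMUSG00000020661, chr12:3801559-3914443) was at 22.6, 21.6 and 21.3 CPM in the controls and at 20.5, 22.9 and 18.5 CPM after 4-OHT, and the 4-OHT values spread around the control values. Its log2 fold change was -0.08 (standard error 0.11, 95% interval -0.30 to 0.14, edgeR adjusted p = 0.768). RefSeq lists 2 other genes that overlap its span, Dnmt3aos and Gm31623, and the use of strand in counting is not given in the sources used here. Dnmt3b (ENSMUSG00000027478, chr2:153649411-153687730) rested on 24, 16 and 22 reads in the controls and 21, 22 and 29 reads in 4-OHT libraries. So few reads left a 95% interval of -0.32 to 0.71 around a log2 fold change of 0.20 (edgeR adjusted p = 0.753), which is 80.1% to 164% of the control level.

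The log2 ratio of Dnmt1 to Dnmt3a reads, maintenance against de novo enzyme, was 3.45, 3.64 and 3.60 in the controls and 3.63, 3.50 and 3.69 in 4-OHT libraries. The groups overlapped, and the difference of 0.04 did not pass (exact two-sided permutation test, p = 0.6, adjusted p = 0.6). It was -0.01 without control replicate 1. As read counts, these ratios are not corrected for gene length and do not give the ratio of transcripts.

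**Figure D2:**
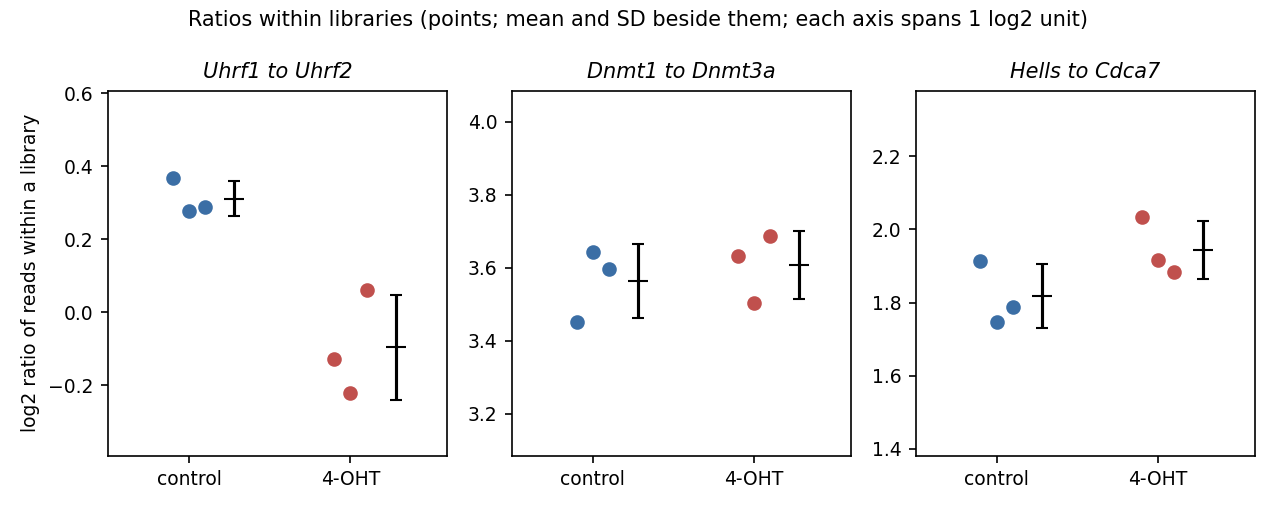
The log2 ratio of read counts within each library (vertical axes, each spanning 1 log2 unit) for Uhrf1 to Uhrf2, Dnmt1 to Dnmt3a and Hells to Cdca7, in the controls and 4-OHT libraries (points), with mean and SD beside them. The groups are apart for Uhrf1 to Uhrf2, with means of 0.31 and -0.10, and overlap for the others.

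None of the TET enzymes was called. Tet3 (ENSMUSG00000034832, chr6:83362373-83457208) had the most reads of the 3, with 95.2, 84.3 and 84.2 CPM in the controls and 83.4, 86.2 and 79.6 CPM after 4-OHT. The distance between its groups came largely from control replicate 1: the log2 fold change was -0.08 (95% interval -0.20 to 0.04, edgeR adjusted p = 0.466) and -0.02 without that library. Tet2 (ENSMUSG00000040943, chr3:133463677-133545136) was at 39.5, 34.7 and 38.2 CPM in the controls and at 42.7, 39.3 and 36.1 CPM after 4-OHT, and the groups overlapped. Its log2 fold change was 0.07 (95% interval -0.10 to 0.24, edgeR adjusted p = 0.709), and 0.0099 without 4-OHT replicate 1. Tet1 (ENSMUSG00000047146, chr10:62804570-62887469) had 6, 6 and 8 reads in the controls and 5, 2 and 8 in 4-OHT libraries, below the low-count filter. Without that filter Tet1 did not pass either (log2 fold change -0.43, 95% interval -1.44 to 0.59, edgeR adjusted p = 0.747). RefSeq places B230319C09Rik and Mir6374 in the span of Tet3 and Gm51805 in that of Tet1, so reads of these pairs may be shared.

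**Figure D3:**
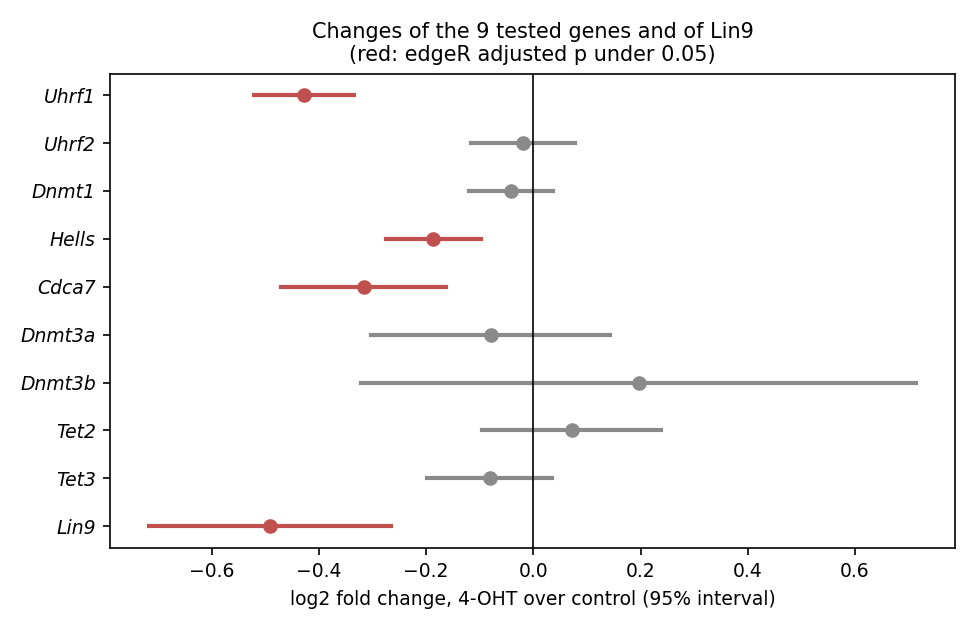
Fold changes on the log2 scale, 4-OHT against control (horizontal axis), of the 9 tested genes and of Lin9, as points with 95% intervals from the edgeR fit, red where the adjusted p was under 0.05. The intervals of Uhrf1, Hells, Cdca7 and Lin9 lie below 0, and the others span 0, the widest being that of Dnmt3b.

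Other genes of the pathway were described by lists according to their role. Among partners of maintenance methylation, 3 of 17 tested genes were lower and 0 higher (edgeR; 5 and 0 at a raw p under 0.05, 1 and 0 in DESeq2, 3 and 0 in limma-voom), with a median log2 fold change of -0.10. Ehmt2, a histone methyltransferase of silent chromatin also called G9a, fell from 233.8 ± 9.26 to 204.8 ± 3.55 CPM (edgeR adjusted p = 0.00031). Trim28, a scaffold of silencing complexes, and Cbx5, the heterochromatin protein HP1 alpha, changed by -0.12 each on the log2 scale. The Trim28 call did not hold without control replicate 3 (adjusted p = 0.052) or 4-OHT replicate 2 (0.128), the Cbx5 call without control replicate 1 (0.052) or 3 (0.148), and both in DESeq2.

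On the de novo side, 1 of 9 tested partners was lower and 0 higher (edgeR; 2 and 1 at a raw p under 0.05, 1 and 0 in DESeq2 and limma-voom; median -0.02). This was Whsc1, which encodes the histone methyltransferase NSD2 and fell from 176.0 ± 3.97 to 143.8 ± 10.0 CPM (log2 fold change -0.29, standard error 0.05, edgeR adjusted p = 7.6e-07). Of 9 tested TET cofactors and regulators 0 were called (edgeR; 0 also at a raw p under 0.05, in DESeq2 and in limma-voom; median -0.02). Ogt, the sugar transferase that partners TET enzymes, stood at 168.7 ± 5.82 CPM in the controls and 163.2 ± 4.39 CPM after 4-OHT.

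In the demethylation and base excision list, 2 of 16 tested genes were lower and 1 higher (edgeR; 4 and 1 at a raw p under 0.05, 1 and 1 in DESeq2, 2 and 1 in limma-voom; median 0.0016). Ung, the uracil DNA glycosylase, was counted at 76, 89 and 85 reads in the controls and fell to 52.6% of its level (log2 fold change -0.93, standard error 0.16, edgeR adjusted p = 3.8e-06). Gadd45g, of a stress-induced family linked to DNA repair, rose from 29.2 ± 0.892 to 40.0 ± 3.92 CPM, while its relative Gadd45a changed by -0.67 on the log2 scale. Leaving out control replicate 1 (adjusted p = 0.059) or either of 4-OHT replicates 1 (0.119) and 2 (0.067) ended the Gadd45a call, as did DESeq2 (0.157). Of 16 tested methyl-CpG readers 0 were called (edgeR; 1 lower and 2 higher at a raw p under 0.05, 0 in DESeq2 and limma-voom; median -0.02), and Chd4, a remodeller of the NuRD complex, was at 97.9% of control.

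Genes of the cycle that supplies methyl groups had 5 of 16 tested members lower and 1 higher (edgeR; 8 and 1 at a raw p under 0.05, 4 and 0 in DESeq2, 5 and 1 in limma-voom), with a median of -0.11. Shmt2, the mitochondrial serine hydroxymethyltransferase, fell from 201.6 ± 2.65 to 155.5 ± 2.97 CPM (log2 fold change -0.37, standard error 0.04, edgeR adjusted p = 2.8e-11). Mthfd2 and Mthfd1l, which act after it in mitochondrial folate metabolism, changed by -0.29 and -0.24 on the log2 scale. Mat2a, whose enzyme makes the methyl donor S-adenosylmethionine, fell from 251.7 ± 12.4 to 224.0 ± 5.25 CPM, a call lost without control replicate 3 (adjusted p = 0.051). Ahcy, which clears the product of methyl transfer, changed by -0.13 and its relative Ahcyl2 by 0.19. Both calls were lost in DESeq2 (adjusted p = 0.197 and 0.278). The Ahcy call was also lost without control replicate 1 or 2 or 4-OHT replicate 1 or 2 (adjusted p up to 0.131), and that of Ahcyl2 without any 1 library other than 4-OHT replicate 1 (up to 0.144).

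Uhrf1, Hells and Dnmt1 are also known as genes of S phase, so the genes of origin licensing and the replisome were set beside them. Of 43 tested, 7 were lower and 1 higher (edgeR; 13 and 2 at a raw p under 0.05, 3 and 0 in DESeq2, 7 and 1 in limma-voom; median -0.02). None had a log2 fold change below that of Uhrf1. The list reached from -0.40 to 0.30. Mcm6, Mcm5, Mcm2 and Mcm7, subunits of the replicative helicase, changed by -0.28, -0.27, -0.18 and -0.20 on the log2 scale, sizes between those of Hells and Cdca7 except for Mcm2. The Mcm7 call was lost in DESeq2 (adjusted p = 0.057). All 20 mitotic markers were lower, with a median of -0.90, and their summed level was 3482 to 3611 CPM in the controls and 1899 to 1907 CPM after 4-OHT. Mki67 and Top2a changed by -1.35 and -0.83, Aspm by -1.68 and Cenpf by -1.30. The part of this shift in the falls of Uhrf1, Cdca7 and Hells was not tested.

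**Figure D4:**
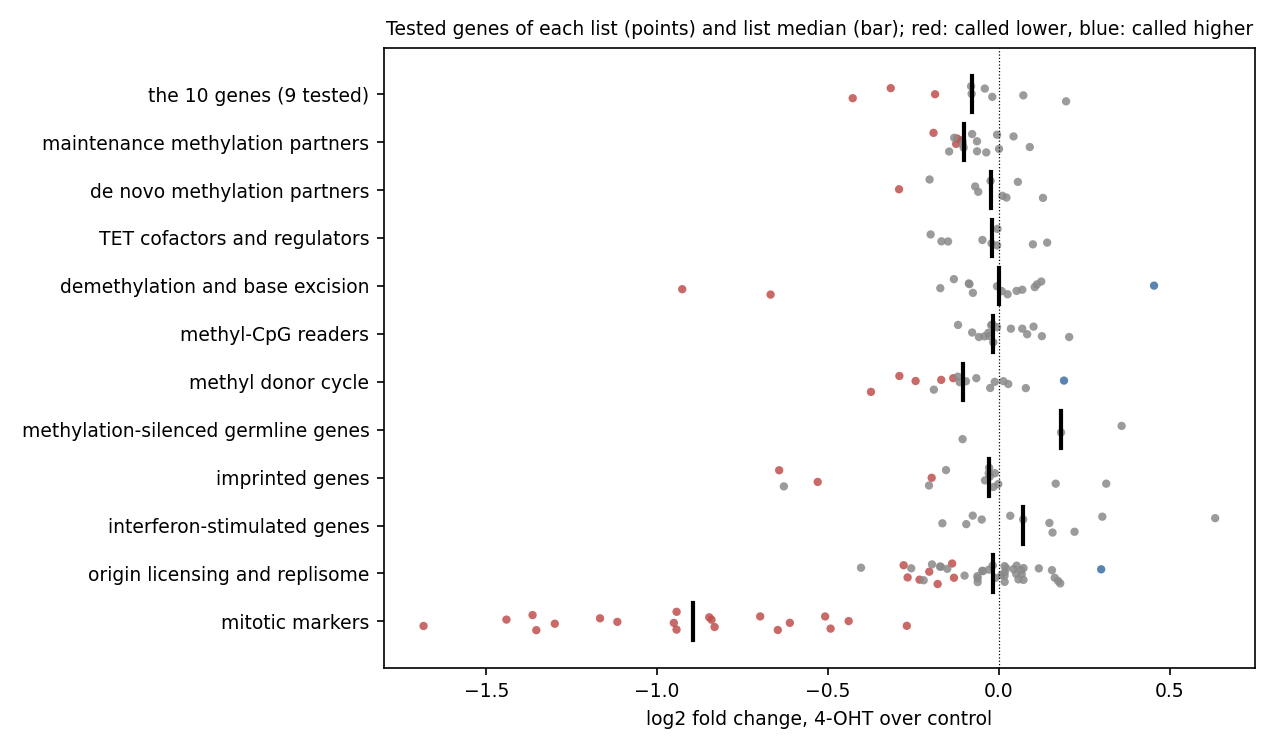
Fold changes on the log2 scale, 4-OHT against control (horizontal axis), of each tested gene (points) in the 10 genes and in 11 lists, with the list median as a bar, red for genes called lower and blue for genes called higher. The median of the mitotic markers is -0.90, and that of each other list lies between -0.11 and 0.18.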

How the data were processed

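Polyadenylated RNA of 6 KPL libraries was measured, per the labels, with an NEBNext Ultra kit. The authors deposited whole-number read counts per Ensembl gene, not normalised. Their second table holds log2 values (fold change and mean CPM) and a p-value and FDR per gene, per the file headers. The submitters' processing notes were read over all samples of the series, ChIP-seq included. Named there, without roles, are edgeR, bedtools 2.26.0, TopHat2 2.1.0, Bowtie2 and Bowtie 1.1.2. The builds named are GRCm38.p6, mm10, GRCh37 and hg19. Which of these apply to the RNA libraries was not separated here. The counting program is not given in the sources used here, nor is the use of strand. Of 38951 lines, 27 identical repeats were dropped.

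Counts were tested across all genes with edgeR 4.0.16 (R 4.3.3): filterByExpr (minimum count 10, minimum total 15) left 13355 genes, followed by TMM scaling, the robust quasi-likelihood F test without a replicate block, two-sided, and Benjamini-Hochberg adjustment at 0.05. CPM uses TMM-scaled totals. Each standard error is the absolute log2 fold change divided by the square root of the F statistic. Intervals are 95%, from this standard error and the t distribution. Ratios within libraries, with 0.5 added to counts, were compared by exact permutation. No libraries were merged, since replicates varied beyond counting noise (chi-square 1.26 to 1.48 for each degree of freedom). The procedure was tested on simulated data. DESeq2 1.42.0, limma-voom 3.58.1, other scalings and filters, a replicate block, a 1.5-fold null hypothesis and leaving out each library were alternatives.

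Named genes were all members, Lin9 and, per list, each called gene where 6 or fewer were called, otherwise the 4 with the smallest p, or the gene of highest mean CPM where none was called. For the 3 lists of other cell types the gene of highest mean CPM was named. Krt8, Sftpc, Sftpa1, Lum and Cd3e were named after their values were seen. Lists are described by counts and medians. The members and lists were chosen with earlier results of these data known. Of the listed symbols, those not found in the matrix were left out.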

Additional observations from a re-analysis of the deposited data

How the results depend on the processing

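Of 135 recomputed fold changes of the 9 tested members, 129 kept their direction and side of the threshold. Members that were not called count here when they merely stayed so with the same sign. Of 15 alternatives each, the call held in 14 for Uhrf1, 14 for Hells and 13 for Cdca7. With the 1.5-fold null hypothesis 0 members, 45 genes in all lower and 0 higher were called, and Lin9, at a log2 fold change of -0.49, was not called. DESeq2 called 362 genes lower and 208 higher, against 691 and 616, and lost Cdca7. Without 1 library the genes called higher numbered 403 (without control replicate 1) to 542. Uhrf2, not called, ranged from -0.055 to 0.022 when libraries were left out (0.00082 without control replicate 2, highest without 4-OHT replicate 3). The Dnmt1 to Dnmt3a ratio differed by -0.013 to 0.095, the lowest without control replicate 1. The marker genes Itgam (-0.668 to 0.0804) and Tek (-0.221 to 0.159), not called, also changed sign. The causes were not tested. Uhrf1, Hells and Cdca7 stayed called without any 1 library, with adjusted p up to 1.2e-07, 0.019 and 0.024.

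With the replicate number as a block, 3 members were lower and 0 higher, 665 genes were lower and 579 higher, and no call of a member changed. Same-numbered libraries did not deviate together (correlations -0.0097, 0.0096 and -0.03), and not every library correlated best with its own number. With 3 libraries per group, such correlations cannot decide whether a number marks a shared culture or day, which no label states. Depth limits Dnmt3b and Tet1, with 72 and 15 reads over the 4-OHT libraries.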

Other observations

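Gene groups that DNA methylation is known to keep silent or to mark by parent of origin were looked at as further levels in the same libraries. Of 21 germline genes that are silenced by promoter methylation in somatic cells, 7 had no read in any library and 3 passed the low-count filter, with 0 called (edgeR; 0 also at a raw p under 0.05, in DESeq2 and in limma-voom). The median log2 fold change of the 3 tested genes was 0.18. The summed level of all 21 was 13.9 to 16.1 CPM in the controls and 16.9 to 18.1 CPM after 4-OHT. A shift of the list as a whole was not tested. Tdrkh, of the piRNA pathway, was at 5.14 ± 1.06 CPM in the controls and 6.60 ± 0.187 CPM after 4-OHT (SD, n = 3 each). Of 11 tested interferon-stimulated genes 0 were called (edgeR; 0 lower and 1 higher at a raw p under 0.05, 0 in DESeq2 and limma-voom). Their median log2 fold change was 0.07, and Adar, an RNA-editing deaminase, was at 105.1% of control.

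Among 15 tested imprinted genes, 3 were lower and 0 higher (edgeR; 4 and 0 at a raw p under 0.05, 1 and 0 in DESeq2, 3 and 0 in limma-voom; median -0.03). The called genes, Dlk1, Meg3 and Rian, belong to the same imprinted cluster, in which Dlk1 is expressed from the paternal and Meg3 and Rian from the maternal copy. Dlk1 fell from 190.4 ± 6.04 to 166.1 ± 3.23 CPM (log2 fold change -0.20, standard error 0.04, edgeR adjusted p = 0.00054). Meg3 changed by -0.53 and Rian by -0.64 on the log2 scale. The Meg3 call did not hold without control replicate 1 (adjusted p = 0.096) or 4-OHT replicate 1 (0.052), the Rian call without control replicate 1 (0.181), 4-OHT replicate 2 (0.103) or 3 (0.067), and both in DESeq2. Methylation itself was not measured in these libraries.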
